A study of Mus musculus with 12 samples.

Results

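A set of 10 genes of the innate sensing of microbes was examined in the mouse colorectum: the Toll-like receptor genes Tlr1, Tlr2, Tlr3, Tlr4, Tlr5 and Tlr9, the cytosolic sensors Nod1 and Nod2, the adaptor Myd88 and the co-receptor Ly96. They were chosen by symbol, and all 10 of 10 are present among the 17734 genes of the expression table and passed a filter on low values that left 15315 genes. The samples came from 12 C57BL/6 mice, 3 in each of 4 groups, and the study's methods give the animals as males of 8 to 10 weeks. Normal mice had neither agent, and normal mice receiving BBR had berberine, a plant alkaloid, by gavage at 100 mg/kg. Colitis mice were given 2.5% dextran sulfate sodium (DSS), which damages the epithelium of the large bowel, dissolved in their drinking water over 7 days, and colitis mice receiving BBR had both agents. The labels give 6 days of BBR and the methods 7 days. The labels give no genotype beyond the strain. DSS colitis is a chemical injury, so it models damage of the lining followed by inflammation, and each sample is a piece of whole tissue. The labels call the tissue colorectum, and the study's methods describe rectal samples. The tissue's defining epithelial gene Epcam was at 780 to 1201 FPKM (transcript level scaled by transcript length and sequencing depth) in all 12 mice.

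Toll-like receptors are membrane proteins that recognise microbial molecules. Tlr2 binds bacterial lipoproteins as a partner of Tlr1 or its relative Tlr6, Tlr4 binds lipopolysaccharide together with the protein MD-2 encoded by Ly96, Tlr5 binds flagellin, Tlr3 binds double-stranded RNA, and Tlr9 binds unmethylated CpG DNA. Nod1 and Nod2 sense fragments of bacterial peptidoglycan inside the cell. All of these receptors activate NF-kB, and each of the Toll-like receptors named here except Tlr3 can signal through the adaptor MyD88. In the gut they face the microbiota across the epithelium and are also carried by macrophages and neutrophils, which enter the tissue during colitis.

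In colitis mice the receptor genes Tlr2 and Tlr4, the sensor Nod2 and the adaptor Myd88 were higher than in normal mice, with no overlap between the groups, and Tlr5 was lower with no overlap. Tlr2 showed the largest of these differences on the log2 scale, 1.43, with 9.92 ± 0.685 FPKM against 3.64 ± 0.545 (SD, n = 3), and it was the member with the smallest P. With BBR added to DSS, Tlr2 was lower than in colitis mice and Tlr5 was higher, again with no overlap. Over all tested genes 29.3% did not overlap between colitis and normal mice (7.1% higher and 22.2% lower). With BBR added to DSS 7.08% did not (1.42% higher and 5.66% lower). In the limma fit of 4 group means Myd88 missed an unadjusted P of 0.05 between colitis and normal mice. After quantile normalization or median centring Myd88 passed that limit and Tlr5 missed it. No member reached an adjusted p under 0.05 in any comparison as fitted by limma over all 12 mice. Because whole tissue was sequenced, more cells of a type that carry a gene and more RNA per cell cannot be told apart.

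The promoters of the members whose groups did not overlap between colitis and normal mice are shown here for the 4 that have an entry in RefSeq's table. Each run is the 250 bases before the transcription start, 5′ to 3′ on the strand of the gene, from GRCm38.p6. Capitals mark matches on either strand to the NF-kB pattern (GGG, any 5 bases, CC) or to the pattern of the interferon-stimulated response element, ISRE (GAAA, any 2 bases, GAAA).
Tlr2, chr3:83841609-83841858, minus strand: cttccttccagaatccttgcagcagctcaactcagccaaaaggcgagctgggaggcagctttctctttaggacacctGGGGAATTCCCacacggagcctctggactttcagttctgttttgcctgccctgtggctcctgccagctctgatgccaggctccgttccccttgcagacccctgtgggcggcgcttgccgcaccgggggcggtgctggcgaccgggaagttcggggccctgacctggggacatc
Nod2, chr8:88647097-88647346, plus strand: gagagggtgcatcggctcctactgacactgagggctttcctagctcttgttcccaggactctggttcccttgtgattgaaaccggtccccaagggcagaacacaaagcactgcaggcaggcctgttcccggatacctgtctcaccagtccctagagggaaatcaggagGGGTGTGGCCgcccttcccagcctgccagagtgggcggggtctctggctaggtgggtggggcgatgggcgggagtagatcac
Myd88, chr9:119340019-119340268, minus strand: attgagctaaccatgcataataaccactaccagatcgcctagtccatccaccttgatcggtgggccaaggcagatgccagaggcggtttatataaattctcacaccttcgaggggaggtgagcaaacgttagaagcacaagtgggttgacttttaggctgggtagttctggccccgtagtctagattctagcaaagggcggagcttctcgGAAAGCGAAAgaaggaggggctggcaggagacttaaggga
Tlr5, chr1:182954538-182954787, plus strand: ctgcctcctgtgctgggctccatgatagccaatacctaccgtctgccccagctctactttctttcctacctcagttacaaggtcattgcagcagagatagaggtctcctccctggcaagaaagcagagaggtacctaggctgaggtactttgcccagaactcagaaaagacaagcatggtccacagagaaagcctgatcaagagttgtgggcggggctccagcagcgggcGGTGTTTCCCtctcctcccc

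The Tlr2 window holds the run GGGGAATTCC at positions -173 to -164 from the start, and overlapping it by all but 1 base the palindrome GGGAATTCCC. The NF-kB pattern is common, with 45.8% of 32841 promoter windows of the same length holding it. A narrower form (GGG, any 3 bases, TTCC), which was chosen after the matches were seen, is in 4.65% of the windows, and of the members Tlr2 and Tlr3 hold it. Nod2 has 1 match of the broad pattern at -82 to -73 and Tlr5 has 1 at -20 to -11 on the opposite strand. The Myd88 window has no NF-kB match but holds the ISRE match GAAAGCGAAA at -40 to -31, a pattern found in 2.98% of the windows. Among the other members, Tlr3 and Nod1 hold the broad NF-kB pattern, Tlr1 and Tlr9 hold the PU.1 core GAGGAA (23.3% of the windows), and Tlr9 holds the AP-1 site TGANTCA (6.75%). Tlr1 and Nod1 each have more than 1 window, and only 1 of them holds the match. For Tlr1 the bases just after the starts were not found in the reference transcripts of the gene. A match of letters is a description and does not show that a factor binds there, and Tlr4 and Ly96 have no window in the table.

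**Figure D1:**
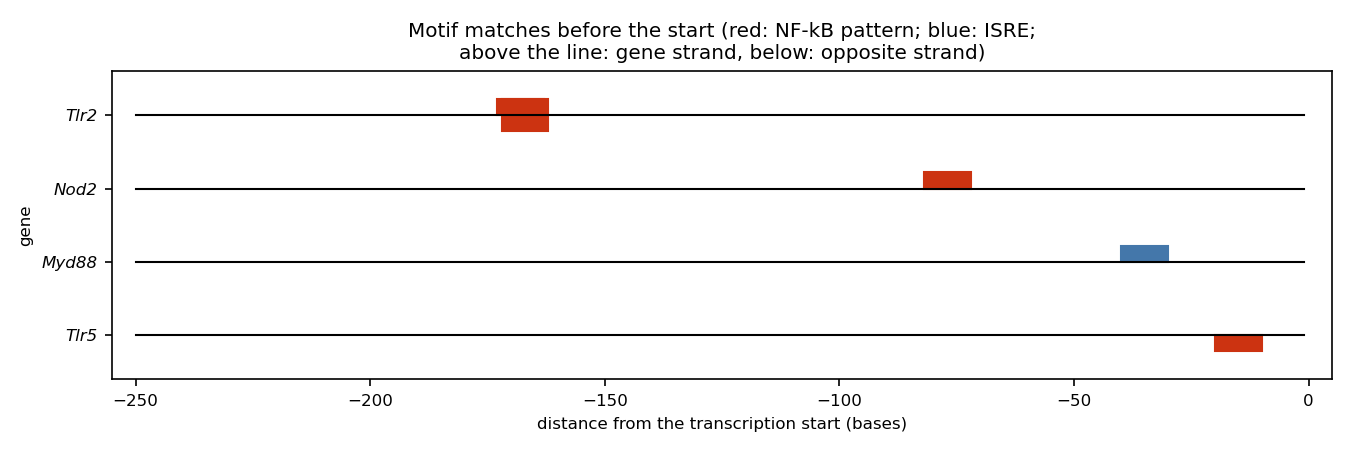
Matches to the NF-kB pattern (red) and the ISRE pattern (blue) in the 250 bases before the start of 4 members, with distance from the transcription start in bases on the horizontal axis and 1 line per gene. Boxes above the line are on the gene's strand and boxes below it on the opposite strand, and the Tlr2 matches lie farther from the start than those of the other 3 genes.

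The members differed widely in level per transcript length. In normal mice Tlr1 had the highest mean, 38.8 ± 7.49 FPKM, followed by Myd88 at 20.0 ± 2.19, Ly96 at 17.1 ± 5.44 and Tlr3 at 9.10 ± 0.858 (SD, n = 3). Tlr4 was at 5.48 ± 0.104 FPKM, Tlr2 at 3.64 ± 0.545 and Nod1 at 3.34 ± 0.526. Below 1 FPKM were Tlr5 at 0.91 ± 0.195, Nod2 at 0.327 ± 0.0404 and Tlr9 at 0.223 ± 0.197. The values of neighbours in this order overlapped for Myd88 and Ly96, for Tlr2 and Nod1, and for Nod2 and Tlr9, and did not overlap for the other neighbours. In colitis mice the values from Tlr1 down to Tlr2 overlapped at each step, while Tlr2 and Nod1 no longer overlapped. Tlr1 has a close relative in Tlr6, so short reads of the pair can be shared, and how the authors' counting divided them was not tested.

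The 4 mice numbered 4, 1 in each group, stood apart from the other 8 in the table as a whole. Their columns summed to 482200 to 504300 FPKM against 696300 to 765900, and they had 872 to 1086 genes at 0 against 1332 to 1926. Their estimated depth, from the steps between low values, was 17390000 to 19900000 reads against 12540000 to 13790000. Each group holds 1 such mouse, and members whose values follow this split are named beside their result. The labels do not say what the numbers stand for.

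**Figure D2:**
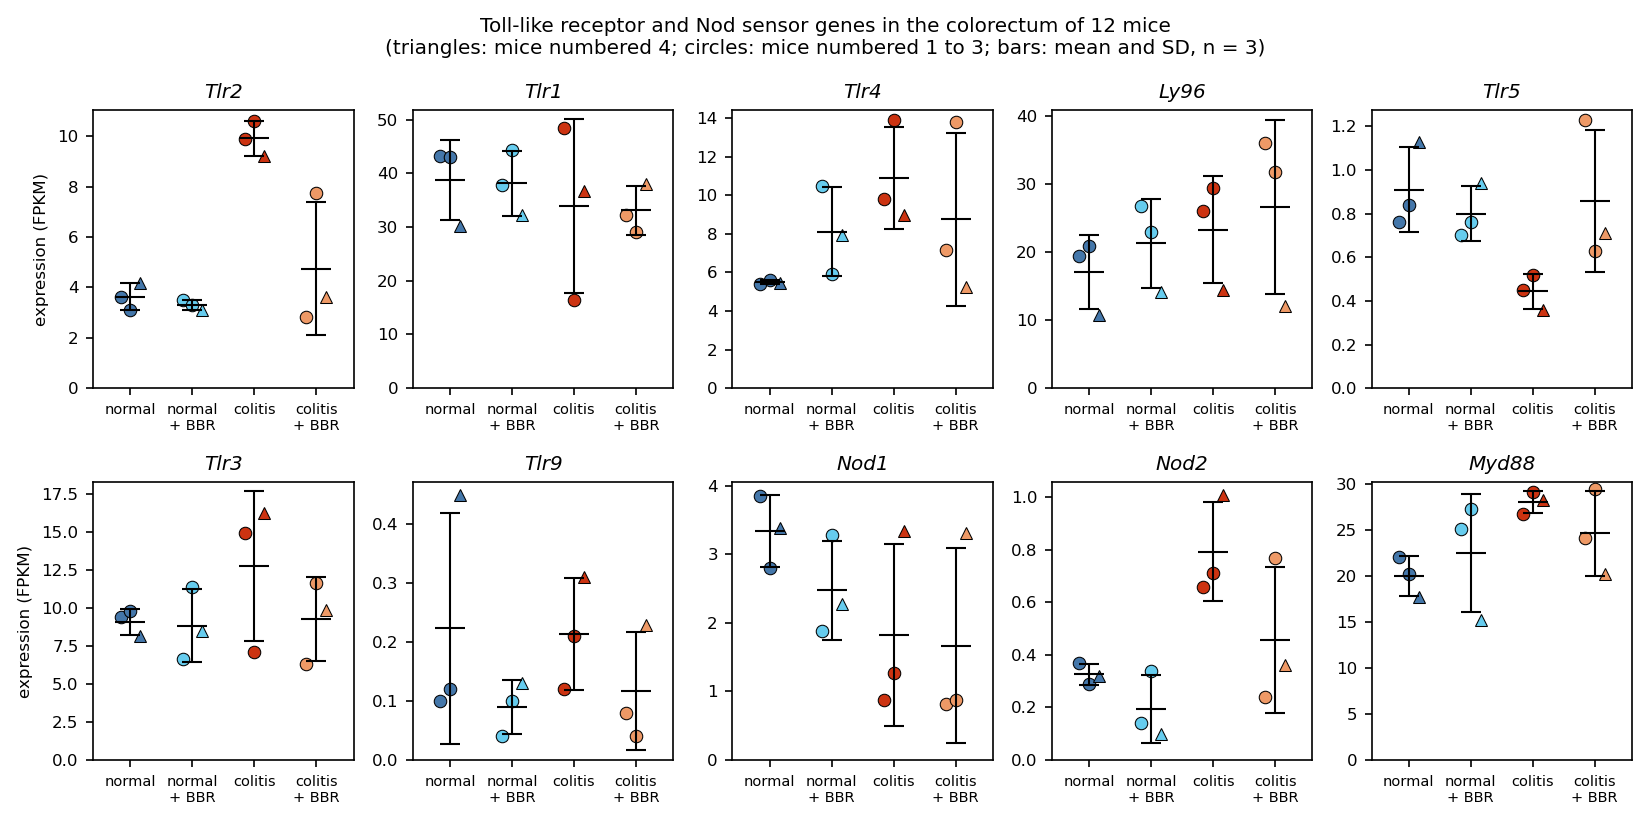
Expression of the 10 members in FPKM (vertical axes, from 0) in each of 12 mice by group, with triangles for the mice numbered 4 and bars for the mean and SD (n = 3). Tlr2 is at 9.24 to 10.6 in colitis mice and 3.10 to 4.19 in normal mice, and Ly96 is lowest in the triangle of every group.

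Tlr2, the receptor for bacterial lipoproteins, was at 3.62, 3.10 and 4.19 FPKM in normal mice, against 9.91, 10.6 and 9.24 FPKM in mice with colitis. Every colitis mouse was thus above every normal mouse. Under DSS and BBR the values were 2.83, 7.76 and 3.63 FPKM, and in normal mice receiving BBR 3.49, 3.30 and 3.09 FPKM. Of the colitis mice receiving BBR, the mouse numbered 2 was below every normal mouse, the mouse numbered 4 lay within their range and the mouse numbered 3 lay between the normal and the colitis groups. On the log2(FPKM + 0.1) scale Tlr2 was higher in colitis than in normal mice by 1.43 (SE 0.32, a fold of 2.70, limma adjusted p = 0.0581). From colitis mice to BBR-treated colitis mice the difference was -1.18 (SE 0.32, a fold of 0.441, limma adjusted p = 0.486). Both differences passed the unadjusted limit of 0.05 used in the study's methods and missed the adjusted one, and both passed the unadjusted limit in every fit that left out a mouse and under each other alternative run. The first passed the adjusted limit as well in 5 alternatives, among them quantile normalization (1.79, limma adjusted p = 0.0364) and the fit of the compared groups alone (limma adjusted p = 0.0201), and over all alternatives other than removal of a mouse its adjusted p ran from 0.0201 to 0.071. In those 5 alternatives 1.21% to 9.22% of all tested genes passed the adjusted limit. Without the BBR-treated colitis mouse numbered 3 the second was -1.60 and passed the adjusted limit (limma adjusted p = 0.0283), as did 0.379% of all tested genes. The colitis difference was 1.59 among the mice numbered 1 to 3 and 1.12 in the mice numbered 4, and the BBR difference was -1.11 and -1.32. Permuting the 3 mice of each group exactly gave a two-sided p = 0.1 for both, the smallest p this design allows.

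Tlr1, which pairs with Tlr2, overlapped between the groups. Its values were 43.2, 43.0 and 30.1 FPKM in normal mice and 48.4, 16.5 and 36.8 FPKM in colitis mice. BBR-treated colitis mice had 32.2, 29.1 and 38.0 FPKM, and BBR-treated normal mice 37.9, 44.3 and 32.3 FPKM. The colitis mouse numbered 2 had the lowest value of all 12 mice. The difference between colitis and normal mice was -0.31 on the log2 scale, with a 95% interval from -1.04 to 0.42 (limma adjusted p = 0.58).

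Tlr4, the lipopolysaccharide receptor, was at 5.40, 5.60 and 5.45 FPKM in normal mice, the narrowest spread of any member in any group relative to its mean, and at 9.80, 13.9 and 8.97 FPKM in colitis mice. All 3 colitis mice were above the normal mice. The difference was 0.95 (SE 0.34, a fold of 1.94, limma adjusted p = 0.151) and passed the unadjusted limit, and without the colitis mouse numbered 2 it was 0.76 and missed that limit. Normal mice receiving BBR had 10.5, 5.90 and 7.97 FPKM, which did not overlap the normal mice either. That difference was 0.52 (SE 0.34) and did not pass the unadjusted limit. Under DSS and BBR the values were 7.18, 13.8 and 5.26 FPKM, spread over the range of both the normal and the colitis group. They differed from colitis mice by -0.40 (SE 0.34), which did not pass the unadjusted limit, and without the BBR-treated colitis mouse numbered 3 by -0.79, which did. From normal mice they differed by 0.55 (SE 0.34), which missed that limit and passed it without the BBR-treated colitis mouse numbered 4 (0.85), after quantile normalization (0.98) and after median centring (1.04).

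Ly96, which encodes the lipopolysaccharide-binding partner of Tlr4, had 19.5, 20.9 and 10.8 FPKM in normal mice and 26.1, 29.5 and 14.4 FPKM in colitis mice. With BBR it was at 26.8, 23.0 and 14.1 FPKM in normal mice and 36.1, 31.8 and 12.1 FPKM in colitis mice. In each of the 4 groups the lowest value was that of the mouse numbered 4. No comparison passed the unadjusted limit when all mice were fitted without a block. Colitis mice differed from normal mice by 0.44 (SE 0.44, limma adjusted p = 0.545). It was 0.46 among the mice numbered 1 to 3 and 0.41 in the mice numbered 4, and it passed the unadjusted limit among the mice numbered 1 to 3 and with a block for the mice numbered 4 (limma adjusted p = 0.114). Between BBR-treated colitis and normal mice the difference was 0.55 (SE 0.44), and among the mice numbered 1 to 3 alone it was 0.75 and passed the adjusted limit (limma adjusted p = 0.0379), which 14.1% of all tested genes passed in that fit. It passed the unadjusted limit with a replicate block (0.46), with a block for the mice numbered 4 and without the BBR-treated colitis mouse numbered 4 (1.04).

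Tlr5, the flagellin receptor, went the other way from Tlr2 and Tlr4. It was at 0.76, 0.84 and 1.13 FPKM in normal mice and 0.45, 0.52 and 0.36 FPKM in colitis mice. With BBR it was at 0.70, 0.76 and 0.94 FPKM in normal mice and 1.23, 0.63 and 0.71 FPKM under DSS. Each colitis mouse was below every normal mouse and below every colitis mouse receiving BBR. The difference of colitis from normal mice was -0.89 (SE 0.33, a fold of 0.54, limma adjusted p = 0.168), and that of BBR-treated colitis from colitis mice was 0.78 (SE 0.33, a fold of 1.71, limma adjusted p = 0.742). Both passed the unadjusted limit, and with a pseudocount of 1 they were -0.40 and 0.35. These are low levels, an estimated 22.4 to 80.0 reads per mouse, and the all-gene shift described below is in the same direction as the first difference. After quantile normalization or median centring the first difference was -0.47 or -0.55 and missed the unadjusted limit, as it did without the normal mouse numbered 4 (-0.74), without the colitis mouse numbered 4 (-0.77) and among the mice numbered 1 to 3 (-0.62). The second missed that limit without the colitis mouse numbered 1 (0.79) or 4 (0.66), without the BBR-treated colitis mouse numbered 2 (0.51), among the mice numbered 1 to 3 (0.75) and in a fit of the compared groups alone.

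Tlr3, the endosomal sensor of double-stranded RNA, had 9.39, 9.77 and 8.13 FPKM in normal mice and 14.9, 7.12 and 16.2 FPKM in colitis mice. A pair of colitis mice was above and 1 was below all normal mice. The difference of 0.40 (SE 0.34) did not pass the unadjusted limit (limma adjusted p = 0.474), and without the colitis mouse numbered 2 it was 0.77 and passed it. It also passed that limit after quantile normalization (0.69), after median centring (0.74) and with a replicate block (0.79). With BBR Tlr3 was at 6.65, 11.4 and 8.51 FPKM in normal mice and 6.28, 11.7 and 9.89 FPKM under DSS. Each of these groups overlapped its counterpart without BBR. The difference of BBR-treated colitis from colitis mice was -0.41 (SE 0.34) and missed the unadjusted limit, which it passed with a replicate block (-0.52) and without the colitis mouse numbered 2 (-0.79).

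Tlr9, the endosomal sensor of CpG DNA, was near the lower limit of the data, at 0.10, 0.12 and 0.45 FPKM in normal mice and 0.12, 0.21 and 0.31 FPKM in colitis mice. With BBR the values were 0.04, 0.10 and 0.13 FPKM in normal mice and 0.08, 0.04 and 0.23 FPKM under DSS. An estimated 1.75 to 29.0 reads per mouse stood behind these values, in 2 of the 12 mice under the worth of 3 reads, and no comparison passed the unadjusted limit. In each of the 4 groups the highest value was that of the mouse numbered 4. The summed level of 5 B cell marker genes was highest in the mouse numbered 4 among normal mice, 21.45 FPKM against 4.37 and 4.92, and among BBR-treated colitis mice, 8.82 FPKM against 1.81 and 3.90. In the other 2 groups it was lowest in that mouse, 2.28 FPKM against 3.05 and 8.67 in colitis mice and 3.86 FPKM against 4.08 and 18.31 in normal mice receiving BBR. The part of B cells in the Tlr9 values was not tested.

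Nod2, the muramyl dipeptide sensor, was at 0.37, 0.29 and 0.32 FPKM in normal mice and at 0.66, 0.71 and 1.01 FPKM in colitis mice. The lowest colitis value was above the highest normal value. The difference was 1.05 (SE 0.43, a fold of 2.07, limma adjusted p = 0.194) and passed the unadjusted limit, and with a pseudocount of 1 it was 0.43. With BBR the values were 0.14, 0.34 and 0.10 FPKM in normal mice and 0.24, 0.77 and 0.36 FPKM in colitis mice. The Nod2 values are low and rest on an estimated 8.12 to 93.9 reads per mouse. The colitis mouse receiving BBR numbered 3 again held the highest value of its group, as it did for Tlr2 and Tlr4, and the difference from colitis mice, -0.78 (SE 0.43), did not pass the unadjusted limit (limma adjusted p = 0.895). Without that mouse it was -1.16 and passed it, as it did with a replicate block (-0.97). The Nod2 difference of colitis from normal mice missed the unadjusted limit without the colitis mouse numbered 4 (0.88), without the normal mouse numbered 3 (0.99) or 4 (1.04), among the mice numbered 1 to 3 (0.87) and with a pseudocount of 0.01 (1.24).

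Nod1, the sensor of a peptidoglycan fragment found mainly in Gram-negative bacteria, was divided by mouse number in the 2 groups given DSS. Its values were 3.85, 2.80 and 3.38 FPKM in normal mice and 0.87, 1.27 and 3.34 FPKM in colitis mice. Under DSS and BBR it was at 0.82, 0.87 and 3.31 FPKM, and in normal mice receiving BBR at 1.88, 3.28 and 2.27 FPKM. The mice numbered 4 were thus alike in the normal, colitis and BBR-treated colitis groups, while the colitis mice with other numbers were below the normal mice. Between colitis and normal mice the log2 difference was -1.55 among the mice numbered 1 to 3 and -0.02 in the mice numbered 4, and the pooled value was -1.04 (SE 0.55, limma adjusted p = 0.284). The pooled value missed the unadjusted limit, which the difference passed among the mice numbered 1 to 3, without the colitis mouse numbered 4 (-1.57) and with a block for the mice numbered 4. Between colitis mice receiving BBR and normal mice it was -1.24 (SE 0.55, limma adjusted p = 0.244), with -1.84 among the mice numbered 1 to 3 and -0.03 in the mice numbered 4. This was the only member past the unadjusted limit in that comparison, and it missed that limit without any 1 of the normal mice (-1.36 to -1.13) and without the BBR-treated colitis mouse numbered 2 (-0.91) or 3 (-0.95). It also missed that limit after quantile normalization (-0.59), after median centring (-0.75), with a replicate block (-1.16), without a filter and in the fit of the compared groups alone. Without the BBR-treated colitis mouse numbered 4 it was -1.85 and passed the adjusted limit (limma adjusted p = 0.0309), as did 18.9% of all tested genes in that fit.

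Myd88, the shared adaptor, had 22.1, 20.2 and 17.7 FPKM in normal mice and 26.7, 29.1 and 28.2 FPKM in colitis mice. The groups did not overlap, but the difference was small, 0.49 (SE 0.23, a fold of 1.40), and did not pass the unadjusted limit (limma adjusted p = 0.244). It passed that limit in 5 alternatives, which were quantile normalization (0.67), median centring (0.83), a replicate block (0.57), a block for the mice numbered 4 and the fit of the compared groups alone. BBR-treated colitis mice had 24.1, 29.5 and 20.3 FPKM and normal mice receiving BBR 25.1, 27.3 and 15.2 FPKM, both overlapping their counterparts without BBR.

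**Figure D3:**
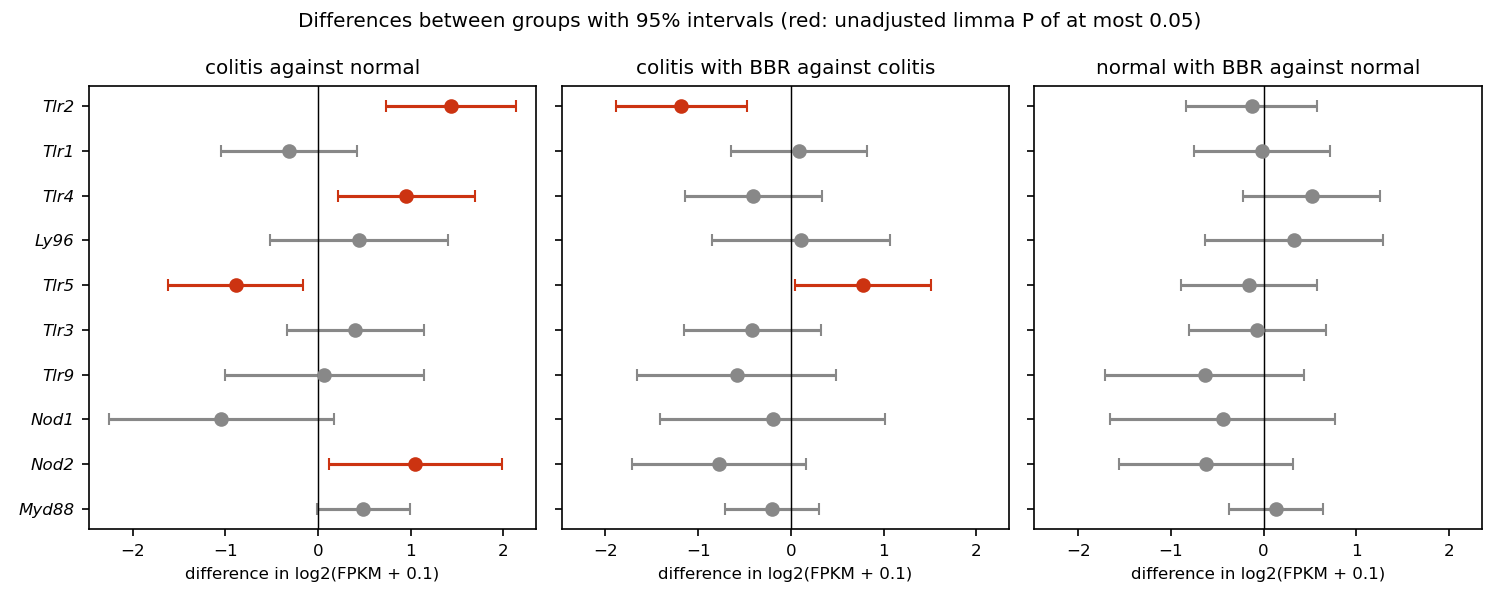
Differences in log2(FPKM + 0.1) between groups for the 10 members, with 95% intervals from limma, in 3 panels: colitis against normal, then BBR-treated colitis against colitis, then BBR-treated normal against normal. Points in red have an unadjusted P of at most 0.05, which are Tlr2, Tlr4, Nod2 and Tlr5 in the first panel, Tlr2 and Tlr5 in the second and none in the third.

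Between colitis and normal mice 4 of the 10 members passed the unadjusted limit, 3 higher and 1 lower, where 21.4% of all tested genes did (5.56% higher and 15.9% lower). Among the mice numbered 1 to 3 alone 4 also passed, with Tlr2, Tlr4 and Ly96 higher and Nod1 lower, where 33.4% of all tested genes did (6.07% higher and 27.4% lower). The 5 members that did not overlap, 4 of them higher, compare with 29.3% of all tested genes (7.1% higher and 22.2% lower). No member passed the adjusted limit, which 1.08% of the tested genes passed. The median difference was 0.42 over the 10 members and -0.32 over all tested genes. The shift of all genes depends on scaling: after quantile normalization the all-gene median was -0.05 and after median centring 0.02. The genes past the unadjusted limit were then 1488 higher and 1521 lower, or 1442 higher and 1245 lower, in place of 852 higher and 2428 lower. Of the members 5 higher and 0 lower passed that limit under each of these scalings, with Tlr3 and Myd88 added and Tlr5 lost. Of the 10 members, 8 had the same sign in the mice numbered 4 as among the mice numbered 1 to 3.

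From colitis mice to BBR-treated colitis mice 2 of the 10 members passed the unadjusted limit, 1 in each direction, where 6.39% of the tested genes did (1.19% higher and 5.2% lower). The same 2, Tlr2 lower and Tlr5 higher, were those that did not overlap, where 7.08% of the tested genes did not (1.42% higher and 5.66% lower). The median difference was -0.30 over the members and -0.09 over all tested genes. Colitis mice are the group shared by this comparison and the one before it, so the values of both are not independent. Between normal mice receiving BBR and normal mice no member passed the unadjusted limit, where 1.36% of the tested genes did (0.516% higher and 0.842% lower), and Tlr4 was the only one that did not overlap, where 9.62% did not (4.17% higher and 5.46% lower). Between colitis mice receiving BBR and normal mice 1 member passed the unadjusted limit, where 20.1% of the tested genes did (1.84% higher and 18.3% lower). That member, Nod1, missed the limit after quantile normalization and after median centring, where Tlr4 (0.98 and 1.04) and Myd88 (0.55 and 0.78) passed it, with Tlr2 (0.77) after quantile normalization as well. All 10 members overlapped in that comparison, and 22.7% of the tested genes did not (1.95% higher and 20.8% lower). Adjusted calls were 0% of the tested genes in both BBR comparisons within colitis and within normal mice and 0.0196% in the last. The interaction, which asks whether the BBR difference in colitis mice is unlike that in normal mice, passed the unadjusted limit for 1 member, Tlr2, and for 2.42% of all tested genes (0.699% higher and 1.72% lower). The Tlr2 call was lost after quantile normalization, after median centring, among the mice numbered 1 to 3 and in 10 of 12 removals of 1 mouse. For Tlr4 the interaction was -0.92 (SE 0.48) and for Tlr5 0.93 (SE 0.47), neither past the unadjusted limit. The first passed it without the BBR-treated normal mouse numbered 3 (-1.13) or the BBR-treated colitis mouse numbered 3 (-1.31), and the second with a replicate block (0.95) and without a trend.

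The pathway around the members was read from 5 lists holding 65 further genes, of which 64 were tested and Tlr11 was below the filter. Between colitis and normal mice 13 of them were past the unadjusted limit and higher, and 6 were lower. Of all tested genes 5.56% were past it and higher, and 15.9% were lower. After quantile normalization the counts were 26 and 2, with 9.72% and 9.93% of all tested genes. After median centring they were 22 and 2, with 9.42% and 8.13%. The 64 genes had a median difference of 0.18, with 25 of them (39.1%) below 0, where 73.7% of all tested genes were. After quantile normalization the median was 0.43 with 16 of the 64 (25%) below 0, against 54.4% of all tested genes, and after median centring it was 0.51 with 12 (18.8%), against 48.7%. The list of ligand-binding proteins, co-receptors and trafficking factors had 7 of 16 higher past that limit and 3 lower, with a median of 0.56. Lbp, which carries lipopolysaccharide to the Tlr4 complex, was the only pathway gene past the adjusted limit, with 2.58 ± 1.15 FPKM in normal and 22.1 ± 3.85 FPKM in colitis mice (SD, n = 3). Its log2 difference was 3.12 (SE 0.49, limma adjusted p = 0.0173). It missed the adjusted limit without the normal mouse numbered 1 (limma adjusted p = 0.106) or 3 (limma adjusted p = 0.0955) and without the colitis mouse numbered 1 (limma adjusted p = 0.0766). Pglyrp1, a peptidoglycan recognition protein, was at 362 ± 58.4 FPKM in normal and 1829 ± 929 FPKM in colitis mice, with a difference of 2.21 (limma adjusted p = 0.0698). Pglyrp1, Nlrc5, Irf7, Rel and Irak2 each passed the adjusted limit in 1 or more alternatives, and all 5 did with a block for the mice numbered 4, a fit in which 9.22% of all tested genes passed it.

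Genes downstream of the receptors are described by role. Among 22 adaptors and kinases 2 were higher and 2 lower past the unadjusted limit, with a median of 0.07. Traf6, the ubiquitin ligase that acts after MyD88, was higher in colitis mice by 0.61 (limma adjusted p = 0.157), whereas the kinase gene Irak2 was lower by 1.03 on the log2 scale, from 25.8 ± 2.56 to 12.9 ± 3.45 FPKM. Among 12 inhibitors 2 were higher past that limit, Nlrc5 by 2.45 (1.37 with a pseudocount of 1) and Il1rl1, a decoy and receptor gene for interleukin 33, by 2.79. The Il1rl1 level in colitis mice was 16.2 ± 21.3 FPKM (SD, n = 3), a spread wider than its mean. Its difference missed the limit without the normal mouse numbered 1 (2.53) or 4 (2.52) and without the colitis mouse numbered 1 (2.98) or 2 (1.61). That of Traf6 missed it without the normal mouse numbered 3 (0.57) and without the colitis mouse numbered 1 (0.55) or 2 (0.50). Nlrc5 is also known as an activator of MHC class I genes. Among 8 transcription factors Rel, an NF-kB subunit, was higher by 2.22 (limma adjusted p = 0.0798) and Irf7, a regulator of type I interferon genes, by 1.16 (limma adjusted p = 0.0928). Of the 6 other Toll-like receptor family genes tested, 1 passed the limit, Tlr12, which was lower (-0.93, limma adjusted p = 0.223). It missed the limit in 8 of 16 alternatives, among them quantile normalization (-0.49), median centring (-0.59) and removal of the normal mouse numbered 3 (-0.82) or 4 (-0.85) or the colitis mouse numbered 1 (-0.64) or 2 (-0.87). The second-ranked gene of that list, Tlr13, an endosomal sensor of bacterial ribosomal RNA, had a difference of 0.92 that did not pass the limit, except after quantile normalization (1.42) and without the colitis mouse numbered 1 (1.36).

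Under BBR in colitis mice 52 of the 64 pathway genes were lower and 12 higher, and all 10 that passed the unadjusted limit were lower. Over all tested genes 62% were lower, and of the 978 past that limit 796 were lower. The median of all genes was 0.04 after quantile normalization and 0.06 after median centring in place of -0.09. The pathway genes below 0 were then 41 or 39 of the 64, where 44.9% or 42.1% of all tested genes were, and 6 or 7 passed the limit, all lower. Of all tested genes 7.28% or 6.48% then passed it, with 4.11% or 3.49% lower. All 6 of the other Toll-like receptor family genes were lower under each of these scalings, 4 of them past that limit in the values as deposited and 2 under either other scaling, with a median of -0.999 as deposited. Among the named genes Tlr13 (-1.47), Tlr12 (-0.91), Il1rl1 (-3.30) and Traf6 (-0.68) passed it, with adjusted p-values of 0.637, 0.772, 0.631 and 0.566 in limma. Tlr12 missed the limit in 10 of 16 alternatives, among them a pseudocount of 1 (-0.29), the mice numbered 1 to 3 (-0.48) and each removal of 1 mouse of these groups except the colitis mouse numbered 1 (-0.56 without the colitis mouse numbered 4). Tlr13 missed it after quantile normalization and median centring (-1.32 in both), among the mice numbered 1 to 3 (-1.26), without the colitis mouse numbered 2 (-0.94) and without the BBR-treated colitis mouse numbered 4 (-1.17). Il1rl1 missed it without the colitis mouse numbered 2 (-2.12) and without the BBR-treated colitis mouse numbered 2 (-2.76) or 4 (-2.74), and Traf6 after quantile normalization (-0.52) and median centring (-0.53). Lbp had a difference of -0.93 that did not pass the limit (limma adjusted p = 0.869), and no pathway gene passed the adjusted limit. Without the BBR-treated colitis mouse numbered 3 Lbp (-1.55), Nlrc5 (-1.69), Pglyrp1 (-1.40), Irf7 (-0.82) and Rel (-1.90) passed the unadjusted limit, Rel also the adjusted one (limma adjusted p = 0.0374), and Irak2 passed the unadjusted one in the other direction (0.71). In that fit 10.8% of all tested genes passed the unadjusted limit. With a replicate block, where 11% did, Nlrc5 (-1.46), Pglyrp1 (-1.01) and Irf7 (-0.72) passed it. Pglyrp1 passed it as well with a block for the mice numbered 4 (-0.85) and without the colitis mouse numbered 4 (-1.27).

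**Figure D4:**
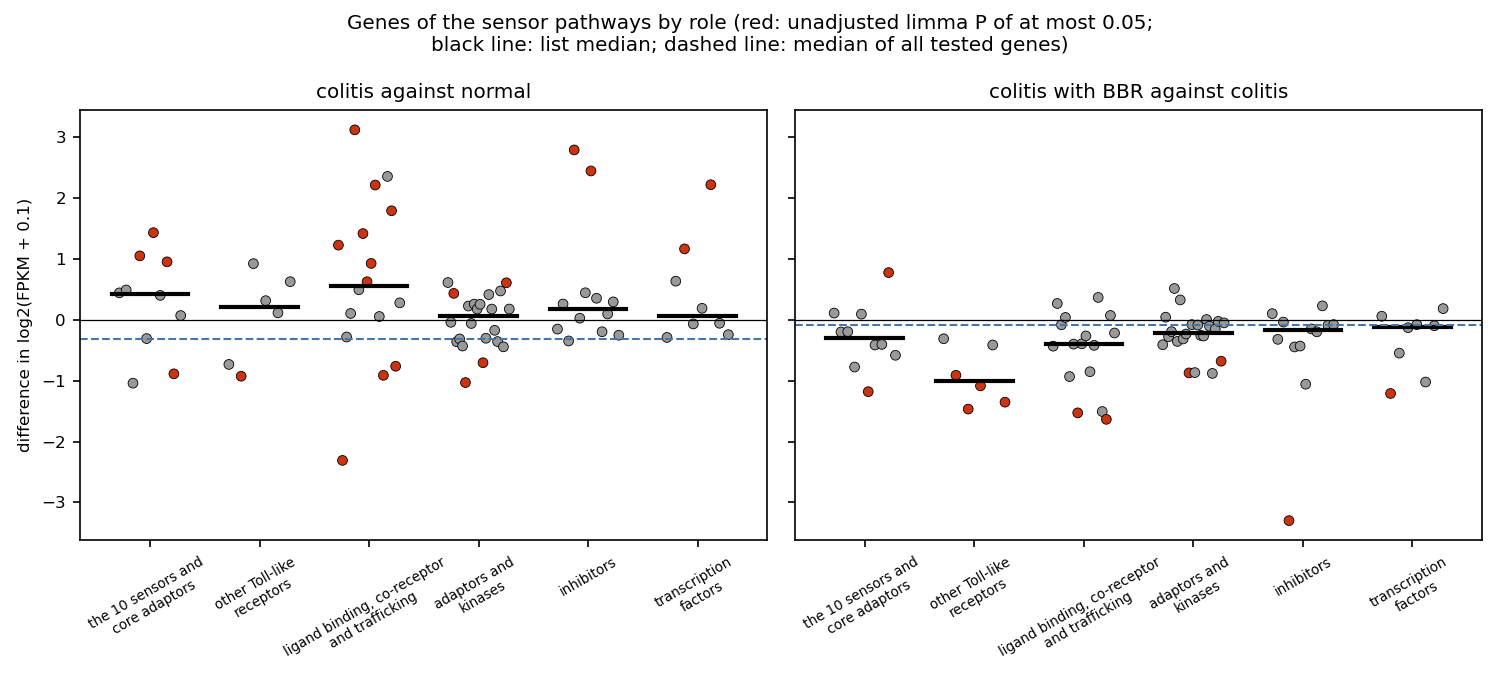
Differences in log2(FPKM + 0.1) for the 10 members and the 5 lists of pathway genes, with colitis against normal at left and BBR-treated colitis against colitis at right. Each point is a gene, red where the unadjusted limma P is at most 0.05. Black lines are list medians and the dashed line is the median of all tested genes, at -0.32 and -0.09.

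Marker genes of macrophages and of neutrophils differed between the groups. All 9 of 9 macrophage and monocyte marker genes were higher in colitis than in normal mice, 5 past the unadjusted limit, with a median difference of 0.83. Their summed level ran from 167 to 223 FPKM in normal mice, 247 to 871 in colitis mice, 136 to 230 in BBR-treated colitis mice and 174 to 261 in normal mice receiving BBR. With BBR all 9 lay below their colitis level, 7 past that limit, with a median of -1.19, and after median centring all 9 were below and 3 passed it. Their defining gene Csf1r was from 5.83 up to 8.74 FPKM in normal and from 5.01 up to 12.4 FPKM in colitis mice, so it overlapped. Over all tested genes 5.56% were higher past the unadjusted limit in colitis mice. With BBR 5.2% were lower past it, and 3.49% after median centring.

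All 6 of 6 neutrophil marker genes were higher in colitis mice and past the unadjusted limit, with a median difference of 3.99. Their defining gene S100a8 was at 0 in all normal mice and all normal mice receiving BBR, from 24.9 up to 336 FPKM under DSS and from 0.31 up to 148 FPKM under DSS and BBR. The summed neutrophil level ran from 262 to 708 FPKM in normal, 420 to 793 in BBR-treated normal, 602 to 4184 in colitis and 491 to 2946 in BBR-treated colitis mice. Most of it was Ly6g, which belongs to a multigene family whose reads can be shared and which was listed at 259 FPKM or more in normal mice. Smooth muscle markers were lower in colitis mice for 5 of 5 genes, all past the unadjusted limit, with summed levels of 43.0 to 454 FPKM against 1120 to 2282 in normal mice, and 278 to 2667 FPKM in BBR-treated colitis mice. None of the 8 epithelial markers passed that limit. Of the 5 B cell markers 1 was higher and 4 were lower in colitis than in normal mice, with 0 past that limit. Of the 5 dendritic cell markers 2 were higher and 3 lower, with 1 of the lower ones past it, and of the 4 T cell markers tested 3 were higher, 1 of them past it. Of the 5 fibroblast and endothelium markers 4 were lower, 1 of them past it. Of the 2 squamous epithelium markers tested 1 was higher and past it. From colitis to BBR-treated colitis mice the 6 neutrophil markers were all lower with 0 past the limit, the 4 T cell markers were all lower with 1 past it, and the 5 fibroblast and endothelium markers were all lower with 1 past it. The 5 smooth muscle markers were all higher, with a median of 1.89 and 0 past the limit, and 2 passed it after median centring. Of the 5 dendritic cell markers 2 were higher and 3 lower, 1 of the lower ones past it. After quantile normalization 5 of the neutrophil and 3 of the T cell markers were lower, and after median centring 4 and 4. Over all tested genes 5.56% were higher and 15.9% lower past the unadjusted limit in colitis mice, and 1.19% and 5.2% under BBR. In colitis mice 1 neutrophil marker passed the adjusted limit, and no marker of the other cell types did. The part of macrophages, neutrophils or tissue sampling in the differences of Tlr2, Tlr4, Nod2 and Tlr5 was not tested.

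**Figure D5:**
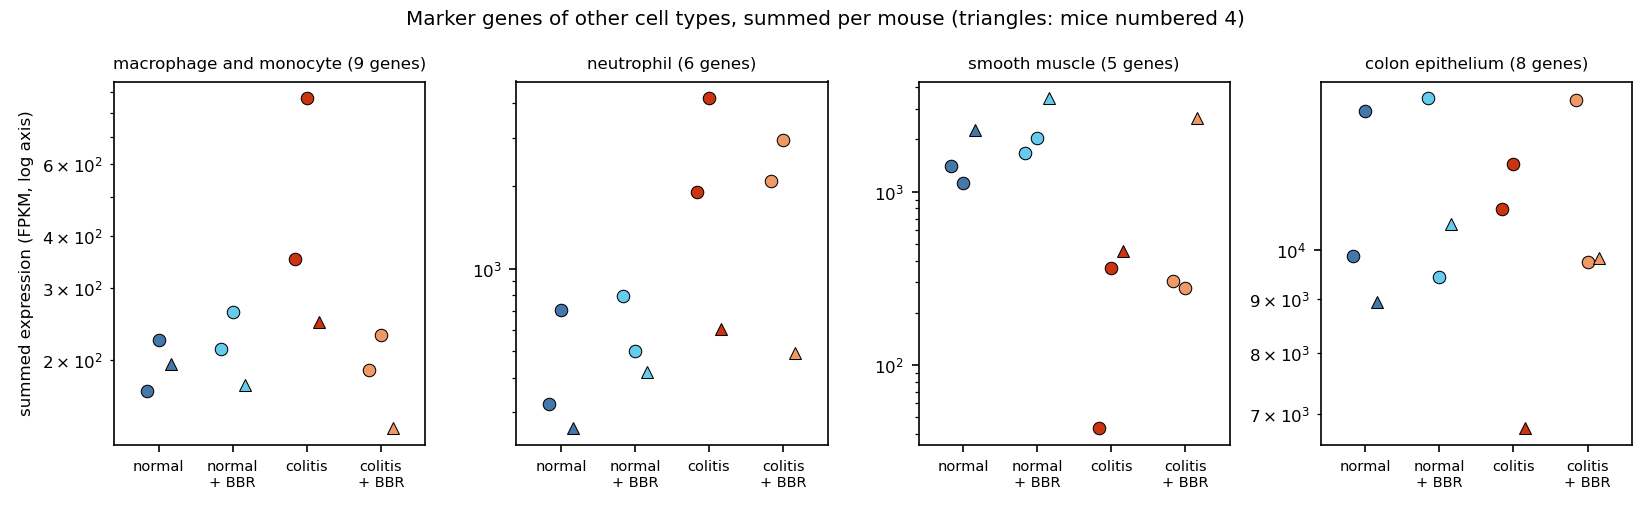
Summed expression of marker genes of 4 cell types (FPKM, log axes) in each of 12 mice by group, with triangles for the mice numbered 4. Macrophage and monocyte sums were 247 to 871 in colitis mice and 136 to 230 in colitis mice receiving BBR, and smooth muscle sums were 43.0 to 454 in colitis mice and 1120 to 2282 in normal mice.

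The genes whose levels followed each member most closely over the 12 mice were named by Pearson r among 11943 genes with a mean of at least 1 FPKM. All points share the 4 groups and the split by mouse number, so r is given as a description. Tlr2 was followed by Ncoa7 (r = 0.977), Fer1l4 (r = 0.973) and Mmp28 (r = 0.969). Tlr4 was followed by Dusp10 (r = 0.942), Itgav (r = 0.941) and Rdh10 (r = 0.940), and Myd88 by Arf4 (r = 0.961), Psmb9 (r = 0.949) and Npdc1 (r = 0.925). The closest genes to Nod1, which was highest in the mouse numbered 4 in both groups given DSS, were Itfg2 (r = 0.993), Cbx3 (r = 0.983) and Tmem109 (r = 0.982). Ly96 was nearest to 2200002D01Rik (r = 0.970), Mt4 (r = 0.968) and the acute-phase gene Saa1 (r = 0.959). Tlr1 was nearest to Papss2 (r = 0.943), Decr1 (r = 0.936) and Elovl7 (r = 0.928), and Tlr3 to Pklr (r = 0.910), Pus10 (r = 0.901) and Rnf213 (r = 0.895). Tlr5, Tlr9 and Nod2 had means under 1 FPKM and were not searched. Among the members themselves the closest pair was Tlr2 and Nod2, with r = 0.862 over the 12 mice.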

How the data were processed

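Colorectal RNA of 12 mice was sequenced by the authors, who filtered reads with SOAPnuke. The submitters' processing notes name Bowtie2 2.2.5 and RSEM 1.2.12, and the build mm9. The deposited table has 1 value per gene and mouse with no unit named. Its values were read as FPKM, made by the authors, and TPM cannot be told apart. The estimated depths and reads per mouse hold only if the values are FPKM. Every column matched a sample by title. The 15315 of 17734 genes whose mean reached 0.1 were tested on the log2(FPKM + 0.1) scale by limma 3.58.1 under R 4.3.3, in a model of 4 group means fitted to all mice together, its variances moderated with a trend. Fold changes on this scale understate the change of low genes. P-values were adjusted by Benjamini-Hochberg over all tested genes. Single genes were also tested with an exact two-sided permutation test, which cannot go below 0.1 for 3 mice against 3. Nothing in the labels says that mice of a group came from separate cages, so p-values measure the spread between these mice. Depth, promoters and figures used Python 3.11.15 (SciPy 1.17.1, pandas 2.3.3, matplotlib 3.10.9, NumPy 2.4.6). Depth was estimated from the steps of low values of 1230 genes with 1 transcript, and the worth of 3 reads covers counting error only, while the 95% intervals come from limma and cover the spread between mice. The test was checked on simulated data. Those were drawn without the split of the mice numbered 4, so the check does not cover that split.

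The members and lists were chosen with earlier results of these data known. Named were all 10 members, pathway genes past the adjusted limit in any comparison with the 2 of smallest P between colitis and normal mice in each list, and for members with a mean of at least 1 FPKM the 3 genes of highest r. Promoter windows came from RefSeq's table (10 windows for 8 members), of another build than the expression table, and were matched by symbol. Alternatives were another pseudocount, filter or scaling, no trend, a block for the replicate number, a block for the mice numbered 4, a fit without those mice, a fit of the compared groups alone and leaving out each mouse. The counts of pathway genes under the other scalings were added after seeing the data. Normal mice with and without BBR share the numbers 1, 3 and 4. Their deviations from the group means correlated at 0.29, 0.109 and 0.657. Mice of unlike numbers reached 0.366 (normal mouse 1 with BBR-treated mouse 3) and 0.456 (normal mouse 3 with BBR-treated mouse 1). These values therefore do not show that the numbers are pairs. The other groups compared share 2 numbers, and the labels give no meaning to them.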

Additional observations from a re-analysis of the deposited data

Results flagged for a closer look

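One result was marked because a test of the BBR difference in colitis mice against that in normal mice passed the unadjusted limit. Of all tested genes 2.42% did so. The Tlr2 difference between mice with and without BBR was -1.18 in colitis mice and -0.13 in normal mice on the log2(FPKM + 0.1) scale. The interaction was -1.05 (SE 0.46, 95% interval from -2.04 to -0.06). It passed the unadjusted limit of 0.05 and failed the adjustment over all tested genes (limma adjusted p = 1). All 3 colitis mice receiving BBR were below every colitis mouse, and normal mice with and without BBR overlapped. The interaction missed the unadjusted limit after quantile normalization (-0.95), after median centring (-0.93), among the mice numbered 1 to 3 (-1.13) and, when each mouse was removed in turn, 10 times out of 12. The exceptions were the fits without the normal mouse numbered 4 and without the BBR-treated colitis mouse numbered 3. With 3 mice a group, no test for a single mouse far from the others was made.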

How the results depend on the processing

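Values are log2 differences or counts of the 10 members, and the cause of each change was not tested. Between colitis and normal mice the members past the unadjusted limit were 4, with 2 after a filter at a mean of 1 FPKM (fewer members tested) and 7 with a block for the mice numbered 4, where calls among all tested genes went from 21.4% to 31.9%. Those past the adjusted limit were 0, and 1 (Tlr2) after quantile normalization, after median centring, with a replicate block, with a block for the mice numbered 4 and with the compared groups alone. From colitis to BBR-treated colitis mice the unadjusted count was 2, with 1 after a filter at a mean of 1, 4 with a replicate block, 1 among the mice numbered 1 to 3 and 1 with the compared groups alone, where the share of all tested genes went from 6.39% to 6.02%, 11%, 7.42% and 3.51%. Between BBR-treated colitis and normal mice it was 1, with 0 without a filter, 3 after quantile normalization, 2 after median centring, 2 with a block for the mice numbered 4, 2 among the mice numbered 1 to 3 (where 2, Nod1 and Ly96, also passed the adjusted limit, as did 14.1% of all tested genes) and 0 with the compared groups alone, where the share of all tested genes went from 20.1% to 18%, 12.3%, 12.1%, 32.7%, 38.6% and 15.3%. For the interaction it was 1, with 0 after quantile normalization, 0 after median centring, 2 without a trend, 2 with a replicate block and 0 among the mice numbered 1 to 3, where the share went from 2.42% to 2.98%, 2.33%, 2.58%, 5.09% and 3.39%, and the compared groups alone are there the whole fit. Between BBR-treated normal and normal mice it was 0 throughout.

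Leaving out 1 mouse at a time gave unadjusted counts of 2 to 4, 1 to 4, 0 to 3 and 0 to 2 in the first comparison, the second, BBR-treated colitis against normal, and the interaction, where 14% to 31.4%, 3.24% to 10.9%, 9.68% to 40.9% and 1.46% to 5.8% of all tested genes passed. Adjusted counts reached 1 in the second without the BBR-treated colitis mouse numbered 3 (Tlr2) and 1 in BBR-treated colitis against normal without the BBR-treated colitis mouse numbered 4 (Nod1), and were 0 otherwise. Differences that changed sign over these fits ran, between colitis and normal mice, from -0.63 to 0.14 for Tlr1 and -0.20 to 0.53 for Tlr9. From colitis to BBR-treated colitis they ran from -0.36 to 0.42 for Tlr1, -0.81 to 0.33 for Nod1 and -0.20 to 0.60 for Ly96. In BBR-treated normal against normal they ran from -0.19 to 0.099 for Tlr1, -0.27 to 0.12 for Tlr3 and -0.028 to 0.39 for Myd88. In BBR-treated colitis against normal they ran from -0.20 to 0.24 for Tlr3, -0.38 to 0.056 for Tlr5, -0.17 to 0.55 for Tlr2 and -0.11 to 0.57 for Nod2.

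Other sign changes follow. Between colitis and normal mice Tlr9 was -0.00299 with a pseudocount of 1 and -0.023 with a replicate block, and Tlr1 was 0.028 after median centring. Nod1 from colitis to BBR-treated colitis was 0.032 after quantile normalization. In BBR-treated normal against normal Tlr1 was 0.00410 after quantile normalization and 0.020 after median centring, and Tlr2 was 0.018 among the mice numbered 1 to 3. In BBR-treated colitis against normal quantile normalization gave 0.032 for Tlr1, 0.40 for Tlr3 and 0.50 for Tlr5, median centring gave 0.27, 0.47 and 0.38, the replicate block gave 0.096 for Tlr1 and 0.26 for Tlr3, and the mice numbered 1 to 3 gave 0.13 for Tlr5. The replicate block changed no call between BBR-treated normal and normal mice, whose numbers are the same. In the other comparisons 2 numbers are shared and nothing in the labels pairs the mice. Depth limits Tlr9 most, with an estimated 1.75 to 29.0 reads per mouse.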
